A study of Bos taurus with 6 samples.

Results

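Cytokines are the secreted signals of the immune system, and they act through receptors on the surface of responding cells. Innate sensors are the receptors that detect microbial molecules and cell damage directly. Toll-like receptors do this at the plasma membrane and in endosomes, NLR proteins in the cytosol, and C-type lectins at the cell surface, often by binding sugars. In skeletal muscle most of these genes are known from leukocytes that reside in the tissue or are carried in its blood. The genes described here are 56 of the 2040 genes in the deposited table. Their symbols begin with those of the interleukins, Toll-like receptors, TNF superfamily and TNF-induced genes, colony-stimulating factors, interferon genes, C-type lectins, NLR genes and CXC or CC chemokines. Of 67 symbols that fit, 2 were left out by name and 9 because their annotation carries a kinase activity term, among them 1 without a read in Angus. The term was matched anywhere in the annotation, also where it names regulation of a kinase. Genes that encode no kinase were thus left out, such as IL1B and TNFAIP3, and the counts by role do not include them. No symbol was left out for a G protein-coupled receptor or calcium binding term. IL1RL1 and IL18R1 carry identical counts in all 6 libraries, so the 56 names stand for 55 distinct sets of counts.

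RNA sequencing compared longissimus dorsi, the long back muscle, of Angus beef cattle with that of the Chinese Simmental breed, in a study titled for intramuscular fat content. All animals were 18 months old and sampled at ribs 12 and 13, no treatment is labelled, with 3 libraries per breed. Nothing in the labels tells whether the 3 libraries are 3 animals, so the p-values refer only to the spread between these samples, which may be technical. Values below are normalized counts, meaning deposited counts divided by the authors' size factors, given for replicates 1, 2 and 3 of a breed in that order, with means ± SD (n = 3).

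In the authors' deposited table no gene had an absolute log2 fold change under 1.00 or an adjusted p above 0.0492, so its genes had passed a selection on this same contrast. The breed differences are therefore a description of selected genes, and the adjusted p-values that follow are no independent evidence. In the edgeR quasi-likelihood test fitted to the whole table, 99.9% of the 1989 tested genes passed an adjusted p of 0.05, 24.9% with higher levels in Angus and 75% with higher levels in Chinese Simmental. Of the 55 cytokine, receptor and sensor genes that passed the count filter, 5 (9.09%) were called toward Angus and 50 (90.9%) toward Chinese Simmental. The chemokine CXCL3 had too few reads for that test. The median log2 fold change, Angus minus Chinese Simmental, was -2.30 over the 55 genes and -1.57 over all tested genes. Among genes higher in Chinese Simmental alone the medians were -2.37 and -1.94. Size factors can also be taken from the listed genes alone, by TMM, RLE or the upper quartile, and such list-based factors moved all log2 fold changes toward Angus by a median of 1.36, 1.35 and 1.32. With each of them 5 genes were called toward Angus and 15 toward Chinese Simmental. The same 15 genes were called with each, CCL16, CLEC4A, CLEC4D, CSF2RA, IL10, IL13RA1, IL15RA, IL1R1, IL1RAP, IL1RN, NLRP12, TLR4, TNFAIP2, TNFAIP6 and TNFRSF1A, and the calls given below for the other cytokine, receptor and sensor genes higher in Chinese Simmental were lost. With list-based factors IL10RA, IFNAR2, TNFRSF8, TNFSF14, TLR2 and TLR8 turned toward Angus. In 46 of the 56 genes (82.1%) no library of a breed overlapped the other breed, against 90.3% of all listed genes. Of these, 5 lay higher in Angus and 41 in Chinese Simmental, where the shares of all listed genes were 24.4% and 65.9%. With such shares over all listed genes, the counts of calls and of overlap given by role below do not set a role apart.

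**Figure D1:**
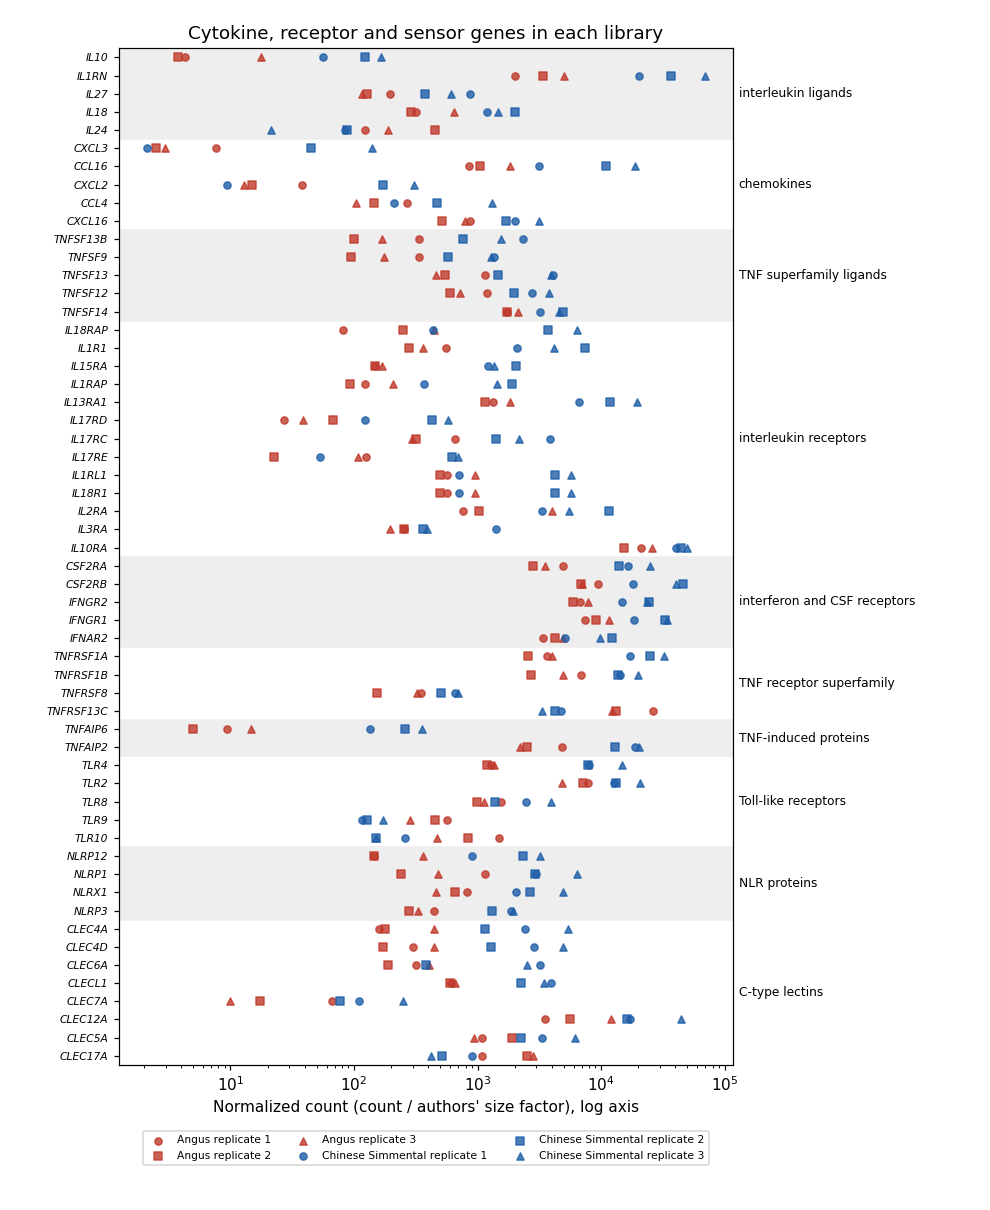
Normalized counts (log axis) of the 56 genes in each of the 6 libraries, grouped by role, with red for Angus, blue for Chinese Simmental and a marker shape for each replicate. The red points lie to the right of the blue ones for IL24, TNFRSF13C, TLR9, TLR10 and CLEC17A, and the colours overlap for 10 genes, such as CXCL2 and IL17RE.

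Listed leukocyte markers also differed between the breeds, as listed genes do by the authors' selection. Of all tested genes, 75% were called higher in Chinese Simmental and 24.9% higher in Angus. All 11 listed of 16 monocyte and macrophage markers were higher in Chinese Simmental, and their summed normalized counts ran from 30739 to 60287 in Angus and from 220882 to 460532 in Chinese Simmental. The 6 listed of 16 neutrophil markers summed to between 47589 and 83647 in Angus and between 570850.0 and 1005560 in Chinese Simmental. The 6 listed of 12 natural killer and cytotoxic markers summed to 24538 to 26610.1 and to 31426 to 82018. B cell markers went the other way, with all 12 listed of 14 higher in Angus at sums of 216442 to 296706 against 58609 to 85989. Of 5 listed dendritic cell markers, 3 stood higher in Chinese Simmental and 2 in Angus, with overlapping sums of 25137 to 37915 and 31860.4 to 32966. No T cell or erythroid marker was listed, and the platelet, endothelial and adipocyte lists had 1 listed gene each, GP9, VWF and LIPE, all higher in Chinese Simmental. The fibroblast list had PDGFRA and THY1, 1 higher in each breed. For the labelled tissue, 3 of 20 skeletal muscle fibre markers were listed, TNNT3, NEB and RYR1, summing to 1757 to 2858 in Angus and 2204 to 4669 in Chinese Simmental. In every library that sum was below those of the listed B cell, neutrophil or monocyte and macrophage markers. The sums hold different numbers of genes and are not corrected for length, so they do not order muscle against leukocyte RNA. The other defining muscle genes were not analysed here, and the cell make-up of the samples against the tissue label was not tested. Most of the genes below are known from leukocytes, and the part of leukocyte content in their breed differences was not tested. In bulk tissue, fewer cells of a type and less RNA per cell cannot be told apart.

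**Figure D2:**
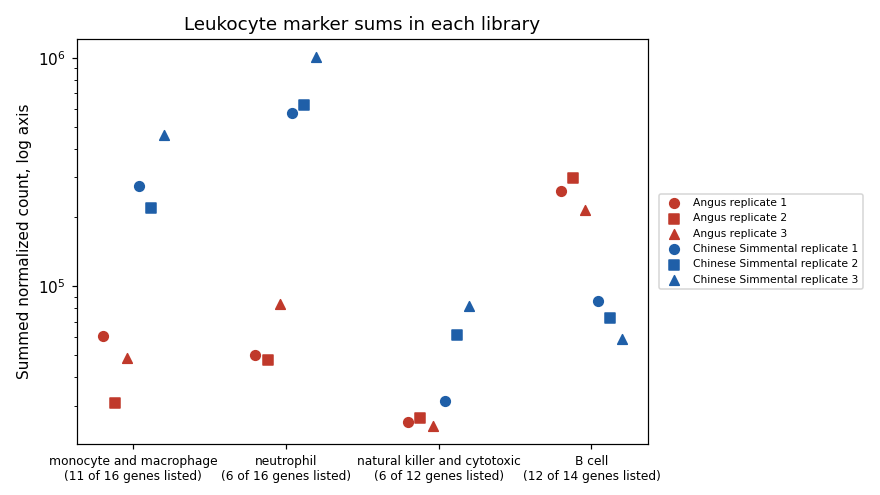
Summed normalized counts (log axis) of the listed markers of 4 leukocyte types in each library, with red for Angus and blue for Chinese Simmental. The monocyte and neutrophil sums are higher in every Chinese Simmental library, and the B cell sums, 216442 to 296706 in Angus, are higher in every Angus library.

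Of the 5 interleukin family ligands, 4 were called higher in Chinese Simmental and IL24 was higher in Angus. IL1RN encodes the antagonist that occupies the interleukin-1 receptor without signalling. It stood at 2004, 3368 and 4985 in Angus and at 20276, 37069 and 68970 in Chinese Simmental. Every Chinese Simmental library lay above every Angus library, and the means of 3453 ± 1492 and 42105 ± 24734 differed 12.2-fold (adjusted p = 0.00302). IL10, an anti-inflammatory cytokine of macrophages and regulatory lymphocytes, had few reads in Angus, at 4.28, 3.75 and 17.7, and stood at 55.7, 123 and 165 in Chinese Simmental. The 13.3-fold difference in IL10 (adjusted p = 0.00521) rose from a log2 fold change of -3.71 to -4.79 without Angus replicate 3. IL27, a subunit of a cytokine from antigen-presenting cells, was at 196, 127 and 116 against 872, 378 and 614, a 4.24-fold difference (adjusted p = 0.00641). IL18, which is released by inflammasomes and induces interferon gamma, was at 318, 289.7 and 651 against 1186, 2017 and 1470.0, or 3.71-fold (adjusted p = 0.00707). IL24, a cytokine of the interleukin-10 family, was at 123, 456 and 189 in Angus and at 84.1, 88.0 and 21.4 in Chinese Simmental. That 3.97-fold difference (adjusted p = 0.0234) leaned on Angus replicate 2, and its call was lost without that library at a log2 fold change of 1.27 (from 1.99) and without Chinese Simmental replicate 3 at 1.57.

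All 5 chemokines among the 56 genes had higher means in Chinese Simmental, and the 4 tested ones were called. Of 10 listed genes annotated with a chemokine domain, 1 was higher in Angus. CCL16, a chemokine that attracts monocytes and lymphocytes, stood at 856, 1039 and 1846 in Angus and at 3142, 10899 and 18832 in Chinese Simmental. The breeds did not overlap for CCL16, which differed 8.79-fold (adjusted p = 0.00452), and leaving out Chinese Simmental replicate 3 moved the log2 value from -3.14 to -2.49. CXCL16, a membrane-bound chemokine that also takes up oxidized lipoprotein, was at 866, 515 and 798 against 2013, 1700.0 and 3141, or 3.15-fold (adjusted p = 0.00762). In the other 3 chemokines Chinese Simmental replicate 1 lay within or below the Angus values. CCL4, a monocyte and lymphocyte attractant, was at 268, 145 and 103 against 212, 466 and 1309.8, or 3.85-fold (adjusted p = 0.0229). Its call was lost without Chinese Simmental replicate 3, at a log2 fold change of -0.98 (from -1.94), and without Angus replicates 2 or 3, at -1.83 and -1.68. CXCL2 and CXCL3 are close paralogs that attract neutrophils, and reads may be split between them. CXCL2 stood at 37.7, 15.0 and 12.8 against 9.46, 173 and 309, and CXCL3 at 7.70, 2.50 and 2.95 against 2.10, 44.9 and 141. For CXCL2 the adjusted p of 0.0236 became 0.0810 with the replicate number as a block, and the call was also lost without Chinese Simmental replicate 3 (log2 fold change -2.05, from -2.89) and without Angus replicates 2 or 3 (-2.69 and -2.62), while without Angus replicate 1 the value was -3.55. CXCL3 was tested only without the count filter, with a log2 fold change of -3.77 ± 1.26 (standard error) and adjusted p = 0.0189, which became -4.45 without Angus replicate 1, and it was not called without Angus replicates 2 or 3 (-3.51 and -3.55).

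The 5 ligands of the TNF superfamily among the 56 genes were all called higher in Chinese Simmental and none overlapped between breeds. TNFSF14 turned toward Angus with list-based factors. LTA, a ligand of the family listed under another name, went the other way, at 2.36-fold higher in Angus (adjusted p = 0.0246). TNFSF13B, the B cell survival factor BAFF, stood at 335, 99.9 and 168 in Angus and at 2315, 769.8 and 1539 in Chinese Simmental. It differed 7.67-fold (adjusted p = 0.00448), and replicate 1 was the highest library in each breed. TNFSF13, the related factor APRIL, which supports plasma cells, was at 1159.7, 551 and 459 against 4098, 1453 and 3926, or 4.37-fold (adjusted p = 0.00780). TNFSF9, which costimulates T cells, was at 335, 94.9 and 175 against 1348, 582 and 1296, or 5.33-fold (adjusted p = 0.00668). TNFSF12, known as TWEAK and studied in muscle for its part in atrophy, was at 1196, 599 and 722 against 2779, 1969 and 3805, or 3.40-fold (adjusted p = 0.00707). TNFSF12 lies close to TNFSF13 in the genome, and reads of these genes may be shared. TNFSF14, a ligand of the lymphotoxin beta receptor, was at 1725, 1721 and 2146 against 3203, 4879 and 4543. That 2.26-fold difference (adjusted p = 0.0132) lost its call without Angus replicate 2, at a log2 fold change of -1.12 (from -1.17).

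All 13 interleukin receptor genes among the 56 were called higher in Chinese Simmental, with folds from 2.16 for IL10RA to 13.6 for IL18RAP, and IL10RA turned with list-based factors. Their median log2 fold change was -2.55, against -1.94 for all tested genes higher in that breed. IL15RA presents interleukin-15 to natural killer and memory T cells. It stood at 148, 149 and 169 in Angus and at 1210.3, 2049 and 1371 in Chinese Simmental, the tightest Angus values of the family, and differed 9.94-fold (adjusted p = 0.00217). In the authors' deposited table it had the smallest adjusted p of the 56 genes, 1.57e-24, and TLR8 the largest, 0.0448. IL13RA1, a receptor chain for interleukins 4 and 13, was at 1341, 1156 and 1836 against 6591, 11707 and 19372, or 8.69-fold (adjusted p = 0.00262). IL10RA, the ligand-binding chain for interleukin-10, was at 21066, 15211 and 26023 against 40727, 44038 and 49612. Its 2.16-fold difference (adjusted p = 0.0207) lost its call without Angus replicates 1 or 2, at log2 fold changes of -1.12 and -0.93 (from -1.11).

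The interleukin-1 receptor family holds IL1R1, the signalling receptor, IL1RAP, the accessory chain it shares with IL1RL1, and the interleukin-18 receptor chains IL18R1 and IL18RAP. IL1R1 was at 556, 281 and 361 in Angus and at 2079, 7415 and 4127 in Chinese Simmental, or 11.4-fold (adjusted p = 0.00292). IL1RAP stood at 123, 92.4 and 209 against 372, 1889.7 and 1441, or 8.73-fold (adjusted p = 0.00452). These genes did not overlap between breeds, and in each of them Chinese Simmental replicate 1 was the lowest library of its breed. IL18RAP was at 82.2, 247 and 445 against 433, 3728 and 6342, with Chinese Simmental replicate 1 just below Angus replicate 3. Its 13.6-fold difference (adjusted p = 0.00741) went from a log2 fold change of -3.76 to -4.41 without Angus replicate 3 and to -3.01 without Chinese Simmental replicate 3. The counts listed under both IL18R1 and IL1RL1, the receptor for interleukin-33, were 567, 501 and 952 against 714, 4215 and 5671, and cannot be assigned to either gene. That shared value differed 5.25-fold (adjusted p = 0.0115), and Chinese Simmental replicate 1 again lay inside the Angus range.

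The interleukin-17 receptor chains listed were IL17RC, IL17RD and IL17RE, which share a cytoplasmic SEFIR domain. IL17RC, a chain of the receptor for interleukins 17A and 17F, was at 656, 317 and 293 in Angus and at 3875, 1403 and 2164 in Chinese Simmental, or 5.87-fold (adjusted p = 0.00452). IL17RD, also known for dampening fibroblast growth factor signalling, was at 27.4, 67.4 and 38.4 against 123, 427 and 575, or 8.44-fold (adjusted p = 0.00552). IL17RE, the chain for interleukin-17C, was at 124, 22.5 and 108 against 53.6, 624 and 691. Chinese Simmental replicate 1 was highest of its breed for IL17RC and lowest for IL17RE, where it fell among the Angus values. The 5.37-fold difference of IL17RE (adjusted p = 0.0281) was not called with the replicate number as a block (adjusted p = 0.0581) or when Angus replicate 2 or 3, or Chinese Simmental replicate 2 or 3, was left out, at log2 fold changes from -2.63 to -1.97 (from -2.42).

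IL2RA and IL3RA completed the interleukin receptors. IL2RA, the CD25 chain of activated and regulatory T cells, stood at 757, 1038 and 4018 in Angus and at 3345, 11641 and 5536 in Chinese Simmental, so Angus replicate 3 exceeded Chinese Simmental replicate 1. Its 3.53-fold difference (adjusted p = 0.0283) was -1.82 on the log2 scale and -2.93 without Angus replicate 3. It lost its call when Angus replicate 1 or 2, or Chinese Simmental replicate 2 or 3, was left out, at values from -1.95 to -1.20. IL3RA, the interleukin-3 receptor chain of basophils and plasmacytoid dendritic cells, was at 254, 254 and 197 against 1401, 365 and 391. Its 3.06-fold difference (adjusted p = 0.0244) rested on Chinese Simmental replicate 1, since without that library the log2 fold change went from -1.61 to -0.69 and the call was lost. The call was also lost without Angus replicates 2 or 3, at -1.67 and -1.50.

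Receptors for interferons and for granulocyte-macrophage colony-stimulating factor (GM-CSF) were called higher in Chinese Simmental in 5 of 5 genes without overlap between breeds, and IFNAR2 turned with list-based factors. CSF2RA, the GM-CSF binding chain, stood at 4882, 2804 and 3532 in Angus and at 16558, 13913 and 24709 in Chinese Simmental, or 4.92-fold (adjusted p = 0.00351). Its counts are also listed under a provisional gene name, so they may belong to either. CSF2RB, the chain that GM-CSF shares with interleukins 3 and 5, was at 9498, 6835 and 6966 against 18255, 45656 and 40338, or 4.47-fold (adjusted p = 0.00452). The interferon gamma receptor chains moved alike. IFNGR1 was at 7402, 9105 and 11691 against 18322, 33094 and 34071, or 3.03-fold (adjusted p = 0.00792). IFNGR2 was at 6795, 5943 and 7784 against 14861, 24597 and 23592, or 3.07-fold (adjusted p = 0.00608). IFNAR2, a chain of the type I interferon receptor, was at 3387, 4211 and 4921 against 5113, 12217 and 9731, so that Chinese Simmental replicate 1 stood close to Angus replicate 3. The 2.16-fold difference of IFNAR2 (adjusted p = 0.0254) lost its call when any library but Chinese Simmental replicate 1 was left out, at log2 fold changes from -1.25 to -0.83 (from -1.11).

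Among the TNF receptors, TNFRSF1A, TNFRSF1B and TNFRSF8 were called higher in Chinese Simmental, of which TNFRSF8 turned with list-based factors, and TNFRSF13C was called higher in Angus. TNFRSF1A, the broadly expressed death domain receptor for TNF, stood at 3659.7, 2554 and 4019 in Angus and at 17035, 24946 and 32153 in Chinese Simmental. It differed 7.24-fold (adjusted p = 0.00217), with a wide gap between the breeds. TNFRSF1B, the TNF receptor of leukocytes, was at 6923, 2702 and 4879.7 against 14355, 13747 and 20014, or 3.32-fold (adjusted p = 0.00752). TNFRSF8, known as CD30 and found on activated lymphocytes, was at 352, 154 and 324 against 659, 502 and 699. Its 2.24-fold difference (adjusted p = 0.0318) lost its call when Angus replicate 2 or 3, or Chinese Simmental replicate 1 or 3, was left out, at log2 fold changes from -1.29 to -0.88 (from -1.16). TNFRSF13C, the BAFF receptor of B cells, was at 26258, 13228 and 12289 in Angus and at 4732, 4265 and 3309 in Chinese Simmental, or 4.21-fold higher in Angus (adjusted p = 0.00448). The receptor TNFRSF13C and its ligand TNFSF13B thus differed between breeds in opposite directions. In FPKM the values of TNFRSF13C overlapped, at 287, 44.8 and 64.8 against 92.0, 43.3 and 47.6, and limma on log2(FPKM + 0.1) gave 0.71 with adjusted p = 0.331.

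The TNF-induced genes TNFAIP6 and TNFAIP2 were named for their response to TNF in human cells. TNFAIP6, a secreted hyaluronan-binding protein, stood at 9.41, 4.995 and 14.8 in Angus and at 136, 258 and 353 in Chinese Simmental, which at 25.6-fold was the largest ratio of means among the 56 genes (adjusted p = 0.00217). TNFAIP2, an exocyst-like protein of myeloid and endothelial cells, was at 4848, 2494 and 2187 against 18703, 13049 and 20364, or 5.47-fold (adjusted p = 0.00351). The counts of TNFAIP2 are also listed under a provisional gene name.

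**Figure D3:**
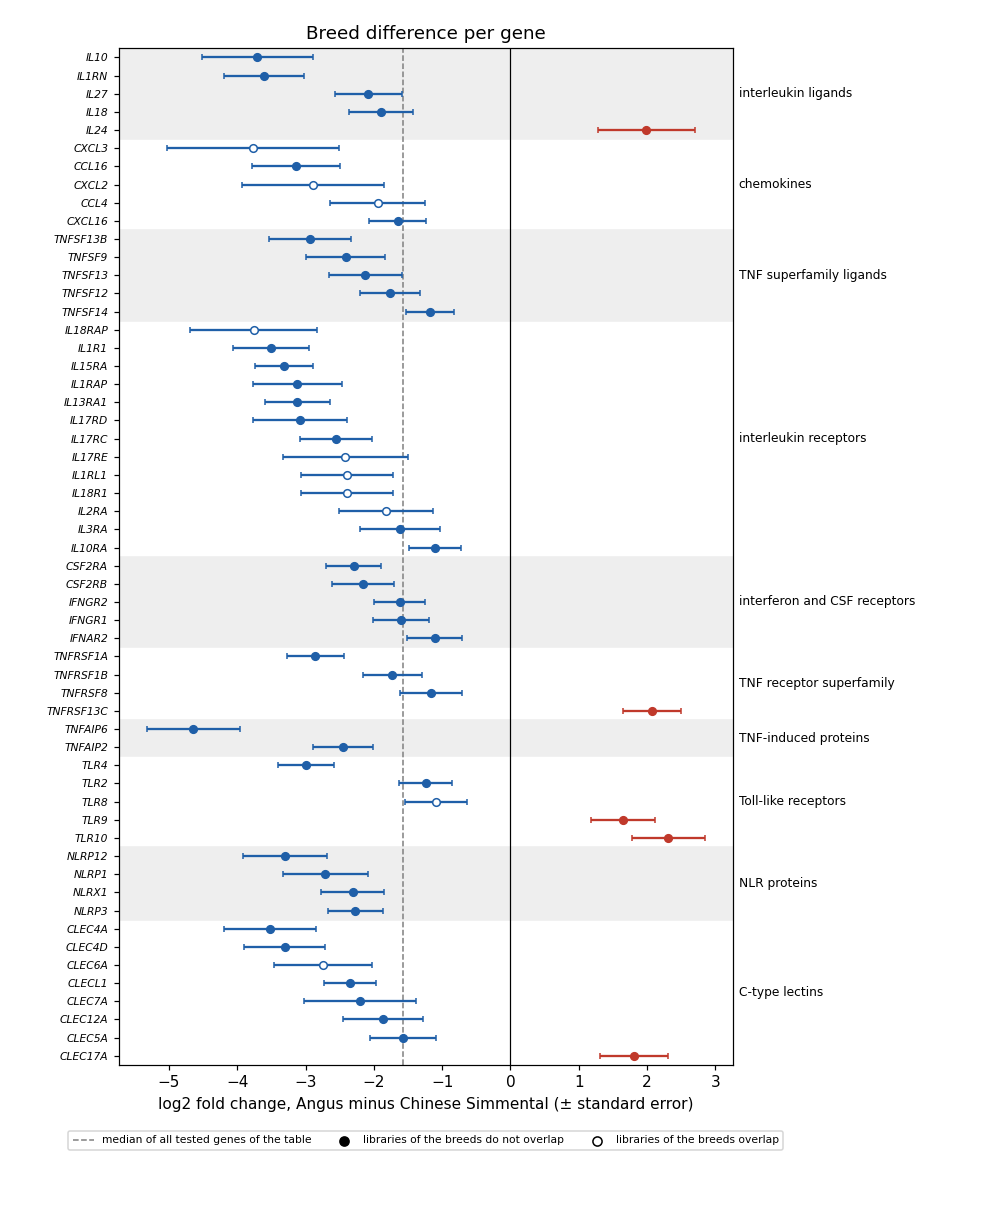
Log2 fold changes (Angus minus Chinese Simmental) with standard errors from the edgeR fit for the 56 genes by role, filled where the libraries of the breeds did not overlap, with CXCL3 from the fit without a count filter. The dashed line marks -1.57, the median of all tested genes, and the 5 red genes lie to the right of 0, while with list-based factors IL10RA, IFNAR2, TNFRSF8, TNFSF14, TLR2 and TLR8 lie on that side too.

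Toll-like receptors divided between the breeds. TLR4, the lipopolysaccharide receptor of myeloid cells, stood at 1281, 1185 and 1357 in Angus and at 7917, 7773 and 14785 in Chinese Simmental. It differed 7.97-fold (adjusted p = 0.00217), and the Angus libraries lay close together. TLR2, which binds bacterial lipopeptides, was at 7821, 7156 and 4806 against 12839.8, 13185 and 20746, or 2.36-fold (adjusted p = 0.0150). Its call was lost without Angus replicate 3, at a log2 fold change of -1.06 (from -1.24), and its direction turned with list-based factors and in limma on FPKM. TLR8, an endosomal sensor of single-stranded RNA, was at 1541, 993 and 1123 against 2485, 1373 and 3932, with Chinese Simmental replicate 2 inside the Angus range. Its 2.13-fold difference (adjusted p = 0.0377) also turned with those factors and lost its call when Angus replicate 2 or 3, or Chinese Simmental replicate 1 or 3, was left out, at log2 fold changes from -1.12 to -0.66 (from -1.09).

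The Toll-like receptors higher in Angus were TLR9 and TLR10, under every scaling tried. TLR9, the endosomal sensor of unmethylated CpG DNA in B cells and plasmacytoid dendritic cells, was at 571, 453 and 284 in Angus and at 117, 127 and 173 in Chinese Simmental, or 3.14-fold (adjusted p = 0.0116). TLR10, best known from human B cells, was at 1482, 838 and 468 against 259.7, 151 and 151, or 4.96-fold (adjusted p = 0.00617). Angus replicate 1 was the highest library for each of them. The 12 listed B cell markers were higher in the same breed. Their sum was highest in Angus replicate 2, at 296706 against 261931 in replicate 1 and 216442 in replicate 3. The part of B cell content in the differences of TLR9 and TLR10 was not tested.

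All 4 NLR genes among the 56 were called higher in Chinese Simmental without overlap. Of all tested genes 75% were called in that direction, and 65.9% of all listed genes lay higher there without overlap. With list-based factors their direction held, but only NLRP12 was still called (adjusted p from 0.0146 to 0.0194), and NLRP1, NLRP3 and NLRX1 were not (adjusted p from 0.0624 to 0.0966). NLRP3, the sensor of the best studied inflammasome, stood at 445, 279.7 and 331 in Angus and at 1858, 1304 and 1930.2 in Chinese Simmental, or 4.82-fold (adjusted p = 0.00351). NLRP12, which in mice restrains inflammatory signalling, was at 145, 146 and 363 against 896, 2349.8 and 3229, or 9.90-fold (adjusted p = 0.00367). NLRX1, a mitochondrial member of the family, was at 826, 652 and 464 against 2042, 2653 and 4942, or 4.96-fold (adjusted p = 0.00420). NLRP1, another inflammasome sensor, was at 1155, 239.8 and 483 against 2979.9, 2894 and 6419.8, or 6.54-fold (adjusted p = 0.00597), and leaving out Angus replicate 1 moved the log2 value from -2.71 to -3.50. Of the 4 genes, NLRP3 had the narrowest spread within Chinese Simmental, at 1697 ± 343.

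Of 8 C-type lectins, 7 were called higher in Chinese Simmental and CLEC17A was called higher in Angus, and no direction turned under any scaling tried. CLECL1, a lectin-like protein of antigen-presenting cells, stood at 615, 604 and 662 in Angus and at 3901, 2233 and 3459 in Chinese Simmental, or 5.10-fold (adjusted p = 0.00302). CLEC4D, an activating receptor for fungal and mycobacterial glycolipids, was at 303, 172 and 447 against 2869.5, 1288 and 4948, or 9.87-fold (adjusted p = 0.00355). CLEC4A, the inhibitory receptor of dendritic cells and monocytes, was at 159, 179.8 and 441 against 2444, 1150.1 and 5368. The 11.5-fold difference of CLEC4A (adjusted p = 0.00387) went from -3.52 on the log2 scale to -4.14 without Angus replicate 3 and to -2.79 without Chinese Simmental replicate 3. CLEC6A, known as Dectin-2 and specific for fungal mannans, was at 318, 189 and 406 against 3219, 381 and 2531, or 6.73-fold (adjusted p = 0.00864), with Chinese Simmental replicate 2 inside the Angus range. In limma on log2(FPKM + 0.1) CLEC6A went from a log2 fold change of -2.75 to -1.59 and was not called (adjusted p = 0.0622). Replicate 2 was the lowest Chinese Simmental library for all 7 lectins higher in that breed, the neighbouring genes CLEC4A, CLEC4D and CLEC6A among them. It was the lowest for 45.1% of the 51 genes higher there.

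CLEC12A, an inhibitory receptor of granulocytes and monocytes, was at 3503, 5557 and 12092 in Angus and at 17009, 16138 and 44164 in Chinese Simmental. Its 3.65-fold difference (adjusted p = 0.0156) went from -1.87 on the log2 scale to -2.51 without Angus replicate 3, and the call was lost when Angus replicate 2 (-1.72) or Chinese Simmental replicate 3 (-1.23) was left out. CLEC5A, a myeloid receptor that signals through an adaptor, was at 1091, 1914 and 935 against 3323, 2229 and 6155, or 2.97-fold (adjusted p = 0.0146), and it was not called once Angus replicate 3 (-1.38, from -1.57) or Chinese Simmental replicate 3 (-1.08) was dropped. Nor was CLEC5A called in limma on log2(FPKM + 0.1), at -0.84 (adjusted p = 0.232). CLEC7A, the beta-glucan receptor Dectin-1, had few reads, at 66.8, 17.5 and 9.84 against 109, 77.0 and 250.5. The 4.64-fold difference of CLEC7A (adjusted p = 0.0263) went from -2.20 to -3.41 without Angus replicate 1 and was not called without Angus replicates 2 or 3 or Chinese Simmental replicate 3, at -1.92, -1.78 and -1.56. CLEC17A, a lectin known from human B cells of germinal centres, was at 1080.1, 2521 and 2799.7 in Angus and at 895, 512 and 421 in Chinese Simmental, or 3.50-fold higher in Angus (adjusted p = 0.0102). Angus replicate 1 and Chinese Simmental replicate 1 were close for CLEC17A.

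The spread within Chinese Simmental entered the authors' adjusted p, on which all listed genes were selected, so it is described here without a test. For the 51 genes higher in that breed, replicate 3 was the highest library in 34 (66.7%) and the lowest in 0, against 64.8% and 5.36% of all 1531 listed genes higher there. Replicate 1 was the lowest in 28 (54.9%) and replicate 2 in 23 (45.1%), against 62.2% and 32.5%. The log2 ratio of replicate 1 to the mean of replicates 2 and 3 had a median of -0.58 over the 51 genes and -0.70 over all 1531, and ran from -4.92 for CXCL3 to 1.89 for IL3RA. Replicate 1 was more than 2-fold lower for 19 of the 51 (37.3%, against 38.3% of all listed), among them the chemokines CCL16, CCL4, CXCL2 and CXCL3. Over all genes of a role, the median ratio was lowest for chemokines (-2.24) and interleukin receptors (-1.47), and it was above 0 only for the TNF superfamily ligands (0.52). Of the TNF superfamily ligands, TNFSF13B, TNFSF13 and TNFSF9 were higher in replicate 1 than the mean of the other two libraries.

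**Figure D4:**
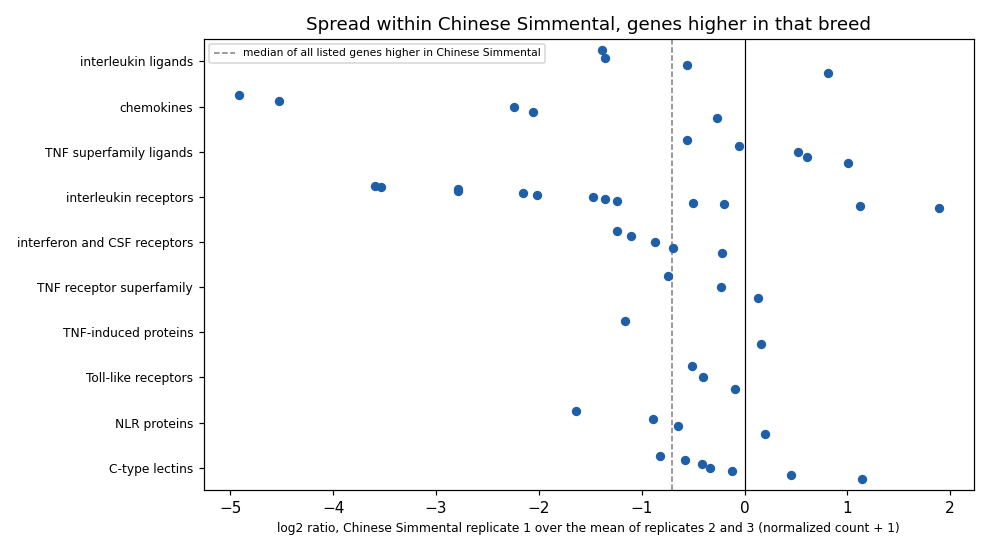
Log2 ratio of Chinese Simmental replicate 1 to the mean of replicates 2 and 3 (normalized count + 1) for the 51 genes higher in that breed, each point a gene, by role. The dashed line marks -0.70, the median of all listed genes higher in the breed, and the chemokines CXCL2 and CXCL3 and the receptors IL17RE and IL18RAP lie farthest to the left.

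Replicate 1 of Chinese Simmental fell to or below the highest Angus library in 8 of the 51 genes (15.7%), against 126 of 1531 listed genes (8.23%). These were the receptors IL2RA, IL17RE, IL18RAP and the shared value of IL18R1 and IL1RL1, and the chemokines CCL4, CXCL2 and CXCL3. Replicate 2 did so for TLR8 and CLEC6A, and replicate 3 for none of the 51, against 53 and 7 of the 1531 listed genes. The chemokine receptor CXCR2 of neutrophils was also low in replicate 1 of Chinese Simmental, at 11369 against 37193 and 46698, and natural killer and cytotoxic markers summed to 31426 there against 61071 and 82018. The whole neutrophil marker list did not set replicate 1 apart to that extent, at 570850.0 against 620790 and 1005560. The monocyte and macrophage marker sum was not lowest in replicate 1, at 273911 against 220882 and 460532. The part of these cell markers in the spread was not tested. In Angus, replicate 2 was the highest library for 3 of the 56 genes (5.36%) and the lowest for 29 (51.8%), against 20.9% and 44.4% of all listed genes, and the monocyte and macrophage marker sum was also lowest there, at 30739.

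Signalling partners of these receptors, from lists chosen with earlier results of these data known, went mostly toward Chinese Simmental, as did 75% of all tested genes. List-based factors moved log2 fold changes toward Angus by a median of 1.32 to 1.36. The calls of genes from these lists with such factors are not given here, and small differences among them could be lost or turn. Of 27 Toll-like receptor signalling genes 5 were listed, and the 4 tested ones, at a median log2 fold change of -1.88, were called higher in Chinese Simmental. CD14, which hands lipopolysaccharide to TLR4, was at 900, 239 and 582 in Angus and at 8415, 6717 and 14898 in Chinese Simmental, or 17.5-fold (adjusted p = 0.00217). LY96, the coreceptor that TLR4 requires, was at 870, 1165 and 1682 against 2580, 3671 and 6074, or 3.32-fold (adjusted p = 0.00829). MYD88, the adaptor of Toll-like and interleukin-1 receptors, was at 8454, 9878 and 12197 against 19650, 52424 and 51941, or 4.06-fold (adjusted p = 0.00624). TIRAP, a further adaptor, differed 2.11-fold (adjusted p = 0.0283). Thus TLR4 and the coreceptors listed for it were all higher in Chinese Simmental, while TLR9 and TLR10 were higher in Angus.

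Of 18 inflammasome and interleukin-1 processing genes 11 were listed, 5 of them among the 56, and all 11 were called higher in Chinese Simmental at a median log2 fold change of -2.71. NAIP, a sensor of bacterial flagellin and secretion systems, was at 2187, 1549.8 and 3228 against 16132, 16538 and 16758, or 7.10-fold (adjusted p = 0.00217). MEFV, the pyrin sensor, was 7.47-fold higher (adjusted p = 0.00581) and CASP4, an inflammatory caspase, 3.23-fold (adjusted p = 0.00593). IL1B, the cytokine whose antagonist is IL1RN, was at 442, 2074 and 1940.3 against 3922, 17701 and 20678, or 9.49-fold (adjusted p = 0.00600). Ligand, antagonist, receptor and accessory chain of the interleukin-1 system, IL1B, IL1RN, IL1R1 and IL1RAP, all stood higher in Chinese Simmental.

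Of 24 JAK-STAT genes, which carry signals from the interferon receptors and some of the interleukin receptors, 8 were listed and called higher in Chinese Simmental at a median of -1.48, close to that of all tested genes. The feedback inhibitors SOCS3, SOCS6 and SOCS1 differed 7.58-fold, 6.19-fold and 4.12-fold (adjusted p = 0.00417, 0.00418 and 0.00681), and STAT2, a factor of type I interferon responses, 3.15-fold (adjusted p = 0.00634). Of 23 NF-kappa-B genes 6 were listed and called higher in Chinese Simmental at a median of -1.36, against -1.57 over all tested genes. The shift of 1.32 to 1.36 with list-based factors was about as large as the NF-kappa-B median. The 6 genes included BCL3, an atypical inhibitor protein, at 3.81-fold (adjusted p = 0.00859), TNFAIP3, the ubiquitin-editing brake A20, at 3.40-fold (adjusted p = 0.0102), and the TNFAIP3-binding proteins TNIP2 and TNIP1 at 2.39-fold and 2.72-fold (adjusted p = 0.0144 for each). None of 20 TNF receptor signalling genes was listed, and their levels were not analysed here.

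Cytokine and chemokine receptors under other names divided between breeds. Of 20 cytokine receptor and ligand genes with other symbols 6 were listed, 3 called higher in each breed. LTBR, the lymphotoxin beta receptor to which TNFSF14 binds, was 5.09-fold higher in Chinese Simmental (adjusted p = 0.00387), OSM, a cytokine of the interleukin-6 family, 6.91-fold (adjusted p = 0.00472), and the death receptor FAS 2.74-fold (adjusted p = 0.0113). CD40, the costimulatory receptor of B cells, was 3.01-fold higher in Angus, at 11829, 15078 and 11193 against 6024, 2863 and 3779.8 (adjusted p = 0.00741). Of 23 chemokine receptors 8 were listed, 6 called higher in Chinese Simmental and 2 in Angus. CCR1 differed 13.2-fold toward Chinese Simmental (adjusted p = 0.00355), and CXCR1 and CXCR2, receptors of neutrophils for CXC chemokines, 17.3-fold and 16.6-fold (adjusted p = 0.00476 and 0.00494). CCR2, the monocyte receptor, differed 3.35-fold (adjusted p = 0.00613), and the receptors higher in Angus were CXCR5 and CCR7, which guide B and T cells within lymphoid tissue. CXCR5 differed 3.64-fold (adjusted p = 0.00668) without overlap between breeds. CCR7 was at 10370, 25063 and 28825 in Angus and at 13553, 6749 and 5436 in Chinese Simmental, or 2.50-fold (adjusted p = 0.03). For CCR7, Chinese Simmental replicate 1 thus exceeded Angus replicate 1.

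Protein domains follow the gene names used to choose the genes, so they are given as a description. The authors' annotation gave a TIR domain, the intracellular signalling part common to Toll-like and interleukin-1 receptors, to 10 of the 56 genes and to 12 listed genes in all. Of these 10, only TLR9 and TLR10 were higher in Angus. A C-type lectin domain was annotated in 17 listed genes, 8 of them described here, with 15 of the 17 higher in Chinese Simmental, and a NACHT domain in 10 listed genes, 9 of them higher there. Of 10 listed genes with a chemokine domain 9 were higher in Chinese Simmental, and of 6 with a TNF family domain 5. Gene order was read from RefSeq (assembly ARS-UCD2.0), which held all 56 symbols. In that order 15 pairs of the 56 genes lay with at most 5 protein-coding genes between them, 9 of these with none. Since 51 of the 56 genes were higher in Chinese Simmental, and IL1RL1 and IL18R1 carry the same counts, shared directions of neighbours are not read as a pattern. Neighbours included IL1R1, IL1RL1, IL18R1 and IL18RAP, the lectins CLEC4A, CLEC6A and CLEC4D, IL2RA and IL15RA, and TNFRSF1B and TNFRSF8. IL10, higher in Chinese Simmental, and IL24, higher in Angus, also lay near each other. Since the strand setting of the counting is not given, reads of overlapping neighbours could be shared between them.

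Levels could not be ordered between genes. The ratio of count to FPKM, which should follow the length of the counted transcript, ran from 0.0115 of the typical listed gene for IFNGR2 to 9.08 for IL18, a 787-fold range. Mean FPKM was 5281 in Angus and 15867 in Chinese Simmental for IFNGR2 but 0.401 and 1.57 for IL18. Within genes, FPKM means gave the same direction as normalized counts for 56 of 56 genes. The count to FPKM ratio varied more than 2-fold between libraries for 8 genes, most of all for TLR2 (7.08-fold), whose FPKM of 15.4, 13.1 and 11.5 in Angus and 5.24, 17.1 and 19.6 in Chinese Simmental overlapped. Besides TLR2, TNFRSF13C, CLEC6A and CLEC5A, limma on log2(FPKM + 0.1) did not call TLR8 (-0.66, adjusted p = 0.186), TNFRSF8 (-1.06, adjusted p = 0.0604), IL3RA (-1.24, adjusted p = 0.101), IL17RE (-2.06, adjusted p = 0.0840) or CXCL2 (-1.70, adjusted p = 0.121).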

How the data were processed

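Libraries were made from 1 µg of total RNA after Trizol extraction, per the labels' protocols. HISAT2 and the build ARS-UCD1.2 are named in the submitters' processing notes. For the counting tool, the strand setting and the annotation, no source used here gives a name. Per the file headers, the deposited table holds counts and FPKM per library, the authors' mean normalized signal per breed, log2 fold changes, and p-values with adjusted p. It held 2040 genes and 1 blank row, which was left out. No library total is given, so depth is unknown. Counts over listed genes summed to 12010803 to 15699184 in Angus and 12799174 to 28883725 in Chinese Simmental libraries. No per-sample column was left unused, and no pair of libraries agreed within sampling noise.

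Size factors were solved from the deposited group means (largest relative residual 1.52e-09), because factors computed over selected genes would centre their differences. Counts were tested with edgeR 4.0.16 in R 4.3.3 (quasi-likelihood, filterByExpr with a minimum count of 10, breed as the only term, Benjamini-Hochberg adjustment over all tested genes, threshold 0.05). Standard errors are the log2 fold change divided by the square root of F. An exact permutation test of 3 against 3 libraries cannot go below 0.1, so none was run. On simulated data for this comparison with 2013 genes the test called 0.0551% of unchanged genes, 9% of genes changed 2-fold and 44.9% of genes changed 4-fold. In the simulation 1815 genes were unchanged, while 99.9% of the tested listed genes were called, so these shares do not carry over to the selected genes. Alternatives were TMM, RLE and upper quartile factors, no count filter, DESeq2 1.42.0, limma 3.58.1 on log2(FPKM + 0.1) or log2(FPKM + 1), also for genes with a mean FPKM of at least 1, a replicate block, and leaving out each library.

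Titles give both breeds replicate numbers 1 to 3. Deviations from breed means of same-numbered libraries correlated over all listed genes at 0.265, 0.148 and 0.240. The numbers were therefore used as a block in an alternative fit, although no label says what they share. The main fit did not use them. Angus replicate 3 and Chinese Simmental replicate 2 correlated at 0.219, above the 0.148 of the libraries numbered 2, so a pairing by number is uncertain.

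The genes, pathway lists and marker lists were chosen with earlier results of these data known. In a role with up to 4 genes all were to be described in full, in larger roles the 4 with the smallest p, the highest mean FPKM and those higher in Angus, and the remaining genes were added with their values. Up to 4 further genes per pathway list were named by smallest p, and LTA, CXCR5, CCR7, PDGFRA, THY1, GP9, VWF, LIPE and the muscle markers after their values were seen. No sequence is shown.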

Additional observations from a re-analysis of the deposited data

How the results depend on the processing

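The authors selected the listed genes on this contrast, so these checks say how calls move, not whether the breeds differ. With TMM, RLE and upper quartile factors over the listed genes, the calls higher in Chinese Simmental fell from 1492 to 256, 263 and 282 over all listed genes and from 50 to 15, 15 and 15 for the cytokine, receptor and sensor genes, the latter by 29 lost calls and 6 more of genes that turned, with each factor set. The log2 fold changes that turned were, in that order, 0.23, 0.21 and 0.17 for IL10RA, 0.30, 0.28 and 0.25 for TLR8, 0.27, 0.29 and 0.23 for IFNAR2, 0.15, 0.11 and 0.087 for TNFRSF8, 0.15, 0.15 and 0.11 for TLR2, and 0.18, 0.18 and 0.14 for TNFSF14. These factors centre the listed genes by construction. For TLR2 limma gave 0.13 on log2(FPKM + 0.1), with or without the filter on mean FPKM, and 0.10 on log2(FPKM + 1), and the cause was not tested. Leaving out 1 library gave 291 to 466 calls higher in Angus and 1059 to 1423 higher in Chinese Simmental over all listed genes, the lowest without Angus replicate 2, and 4 to 5 and 38 to 48 for the genes described, of which 40 kept their call in every such fit. The replicate block, which uses the replicate numbers as pairs, gave 5 and 48 calls (473 and 1464 over all listed genes) and changed no call beyond those of CXCL2 and IL17RE. DESeq2 and the fit without a count filter each gave 5 and 51 calls, CXCL3 included, and limma on FPKM 4 and 37 to 43. Genes with few reads, such as IL10, CXCL3 and TNFAIP6, have folds limited by counting error in Angus.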
